A study of Homo sapiens with 12 samples.

Results

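The genes described here are 9 genes of HLA class I antigen presentation, HLA-B, HLA-C, HLA-E, HLA-F, B2M, TAP1, TAP2, TAPBP and NLRC5, taken by symbol from the 26334 genes counted in A549 cells, an established human lung adenocarcinoma line. All 9 were found in the 12 libraries and all 9 passed the filter on low counts, which left 15352 genes for testing. The cells of all 4 conditions had been infected with lentivirus and selected with puromycin at 1 ug/ml for 4 days. The lentivirus brought in a control hairpin (shControl, control cells) or one directed at RNF113A (shRNF113A, RNF113A-depleted cells), which encodes a RING finger protein of the spliceosome. Each was left untreated or treated with Cisplatin, a platinum drug that crosslinks DNA, for 20 h at 25 ug/ml per the labels of these libraries (the study's methods give the drug in micromolar units for another assay), with 3 libraries per condition. The labels name neither the hairpin sequence nor a clone, and all cells are of 1 line. The questions were how these genes respond to Cisplatin and to RNF113A depletion, and whether the response to one depends on the other.

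Class I molecules show peptides from inside the cell to cytotoxic T cells and natural killer cells. A heavy chain (HLA-B, HLA-C, and the less variable HLA-E and HLA-F) pairs with the light chain beta-2 microglobulin, encoded by B2M. Peptides cut by the proteasome enter the endoplasmic reticulum through the transporter made of TAP1 and TAP2, and tapasin (TAPBP) bridges that transporter to the empty heavy chain. NLRC5 is the transactivator of class I genes. Interferon is the classical inducer of the whole set, in part through IRF1. Heavy chain genes are close paralogs, so that reads of HLA-B, HLA-C, HLA-E and HLA-F can be split or lost between them, and their values are uncertain to that extent. In hg19, HLA-B (chr6:31321649-31324965), HLA-C (chr6:31236526-31239907), HLA-E (chr6:30457244-30461982), HLA-F (chr6:29690552-29706305), TAP1 (chr6:32812986-32821755), TAP2 (chr6:32781544-32806599) and TAPBP (chr6:33267471-33282164) lie in or next to the major histocompatibility complex, B2M at chr15:45003675-45011075 and NLRC5 at chr16:57023397-57117443. TAP1 overlaps PSMB9 and TAP2 overlaps HLA-DOB, and the counts used here keep the strand of the gene.

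The bases just before the transcription start are shown for 4 genes that behaved differently in the comparisons below. TAP1 and HLA-B rose at least 2-fold with Cisplatin in both kinds of cells, B2M is the shared light chain, and TAPBP did not rise. RefSeq (GRCh38.p14) gave starts for 7 of the 9 genes, and the 250 bases before the start are written 5′ to 3′ on the strand of the gene. Capitals mark matches, on either strand, to an interferon regulatory factor core (AANNGAAA) or to an NF-kB site, which can lie beside or over each other.
TAP1 (chr6:32853705-32853954, minus strand): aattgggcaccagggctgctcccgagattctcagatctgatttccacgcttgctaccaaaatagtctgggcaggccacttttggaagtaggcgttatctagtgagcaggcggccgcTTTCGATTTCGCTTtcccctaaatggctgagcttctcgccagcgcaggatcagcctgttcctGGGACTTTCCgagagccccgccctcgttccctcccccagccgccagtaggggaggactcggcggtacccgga
HLA-B (chr6:31357180-31357429, minus strand): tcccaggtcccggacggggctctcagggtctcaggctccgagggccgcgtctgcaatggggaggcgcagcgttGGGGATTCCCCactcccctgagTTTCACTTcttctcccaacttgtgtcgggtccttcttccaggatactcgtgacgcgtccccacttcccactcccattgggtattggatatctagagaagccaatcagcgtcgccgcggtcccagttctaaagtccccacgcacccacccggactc
B2M (chr15:44711267-44711516, plus strand): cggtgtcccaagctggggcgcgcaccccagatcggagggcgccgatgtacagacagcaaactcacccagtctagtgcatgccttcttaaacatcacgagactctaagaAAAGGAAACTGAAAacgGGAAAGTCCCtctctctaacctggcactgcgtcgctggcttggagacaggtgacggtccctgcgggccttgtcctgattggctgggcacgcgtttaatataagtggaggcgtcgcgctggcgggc
TAPBP (chr6:33314079-33314328, minus strand): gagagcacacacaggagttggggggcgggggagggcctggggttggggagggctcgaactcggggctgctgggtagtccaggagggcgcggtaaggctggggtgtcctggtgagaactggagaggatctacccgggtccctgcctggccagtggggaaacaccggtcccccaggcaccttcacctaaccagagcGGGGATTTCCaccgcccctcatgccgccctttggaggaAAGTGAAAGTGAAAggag
The interferon regulatory factor core was found before a start of all 7 genes, against 20.3% of the 35116 windows of the same length in the table, and the NF-kB site before 5 of the 7 (HLA-B, HLA-C, TAP1, TAPBP and B2M), against 9.96%. TAP1 has another listed start, without either match. The TAPBP window holds both kinds of match, as the TAP1, HLA-B and B2M windows do. Of 4 other motifs searched, the Y box (ATTGG) was found before 5 of the 7 genes, against 32.0% of windows, the X2 core (TGACG) before 4, against 21.2%, the GAS element (TTCNNNGAA) before the other TAP1 start alone, against 6.57%, and a p53 half-site before none, against 5.57%. These are matches of letters and not measured binding.

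The libraries held 33859097 to 56071514 read pairs, of which 26220526 to 45721152 were assigned to genes on their strand. Levels are given in CPM, the reads of a gene relative to the effective size of its library, on the usual scale of that unit. RNF113A stood at 20.3, 19.5 and 19.8 CPM in untreated control cells and at 15.3, 15.8 and 16.8 in untreated depleted cells, a fold of 0.805 (edgeR's quasi-likelihood test with Benjamini-Hochberg adjustment, adjusted p = 0.0247). With Cisplatin it stood at 31.5, 28.9 and 27.7 CPM in control cells and 25.8, 24.3 and 29.9 in depleted cells, where the groups overlapped and the difference did not pass (edgeR, fold 0.908, adjusted p = 0.233). The depletion was therefore small at the level of the RNF113A transcript. The study followed RNF113A protein in depleted A549 cells by western blot, which these libraries do not measure. Replicate 2 of both control conditions stood apart, with a chi-square per degree of freedom of 63.5 to 96 against its fellow replicates where the other pairs gave 4.06 to 18.1. All 6 epithelial markers reached 1 CPM, and their summed level was 8523 to 15920 CPM in untreated and 4616 to 6846 CPM in Cisplatin-treated libraries. Keratins made up most of this sum. EPCAM averaged 10.3 CPM in control and 92.25 CPM in depleted cells untreated, and 5.16 and 46.4 CPM with Cisplatin. KRT8, KRT18 and NAPSA also averaged higher in depleted cells, and KRT7 and CDH1 lower. Of the 6 leukocyte markers CD14 and ITGAM reached 1 CPM, PTPRC stayed at or under 0.127 CPM, and the sum was 4.53 to 6.66 CPM in untreated and 8.62 to 18.9 CPM in Cisplatin-treated libraries. The fibroblast sum was 6.11 to 36.6 CPM and the endothelial sum at most 0.866 CPM. The part of these markers in the results was not tested.

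Per length of exon, B2M was the most abundant of the 9 transcripts in untreated control cells, at 86.2 ± 5.55 exonic reads per kilobase of exon, scaled to library size (RPKM, SD, n = 3). HLA-E (28.7 ± 5.31), TAPBP (25.5 ± 5.96), HLA-C (20.8 ± 3.18) and TAP1 (16.7 ± 3.66) followed, and neighbours among these 4 overlapped between libraries. TAP2 stood at 6.90 ± 0.449 RPKM and HLA-B at 5.49 ± 0.2003 RPKM, each apart from its neighbours in the order. HLA-F, at 0.879 ± 0.228, and NLRC5, at 0.619 ± 0.133, were lowest and did not differ beyond their spread.

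Upon Cisplatin treatment of control cells, transcripts of the peptide transporter and of 3 heavy chains and B2M rose, and tapasin and NLRC5 fell. At a threshold of 0.05 on the adjusted p, 6 of the 9 genes passed as higher and 2 as lower, where 28.0% of all 15352 genes were higher and 27.0% lower, and the median log2 fold change of the 9 was 0.42 against -0.01 over all genes. TAP1 and HLA-B passed 2-fold, as did 9.17% of all genes in the upward direction. Over all 12 libraries with depletion as a term, 7 genes were higher with Cisplatin and 2 lower, against 34.8% and 32.1% of all genes.

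TAP1, one subunit of the transporter, changed most. It stood at 44.4, 61.5 and 47.6 CPM in untreated control cells and at 225, 255 and 208 CPM with Cisplatin. The groups lay far apart, with a fold of 4.48 (95% CI 3.68 to 5.46, edgeR adjusted p = 6.46e-08). TAP2, the other subunit, went from 50.6, 43.6 and 52.98 CPM to 102, 76.8 and 97.9 CPM, a fold of 1.88 (CI 1.58 to 2.23, edgeR adjusted p = 2.66e-05). Replicate 2 was the lowest of both TAP2 groups, and they did not overlap.

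**Figure D1:**
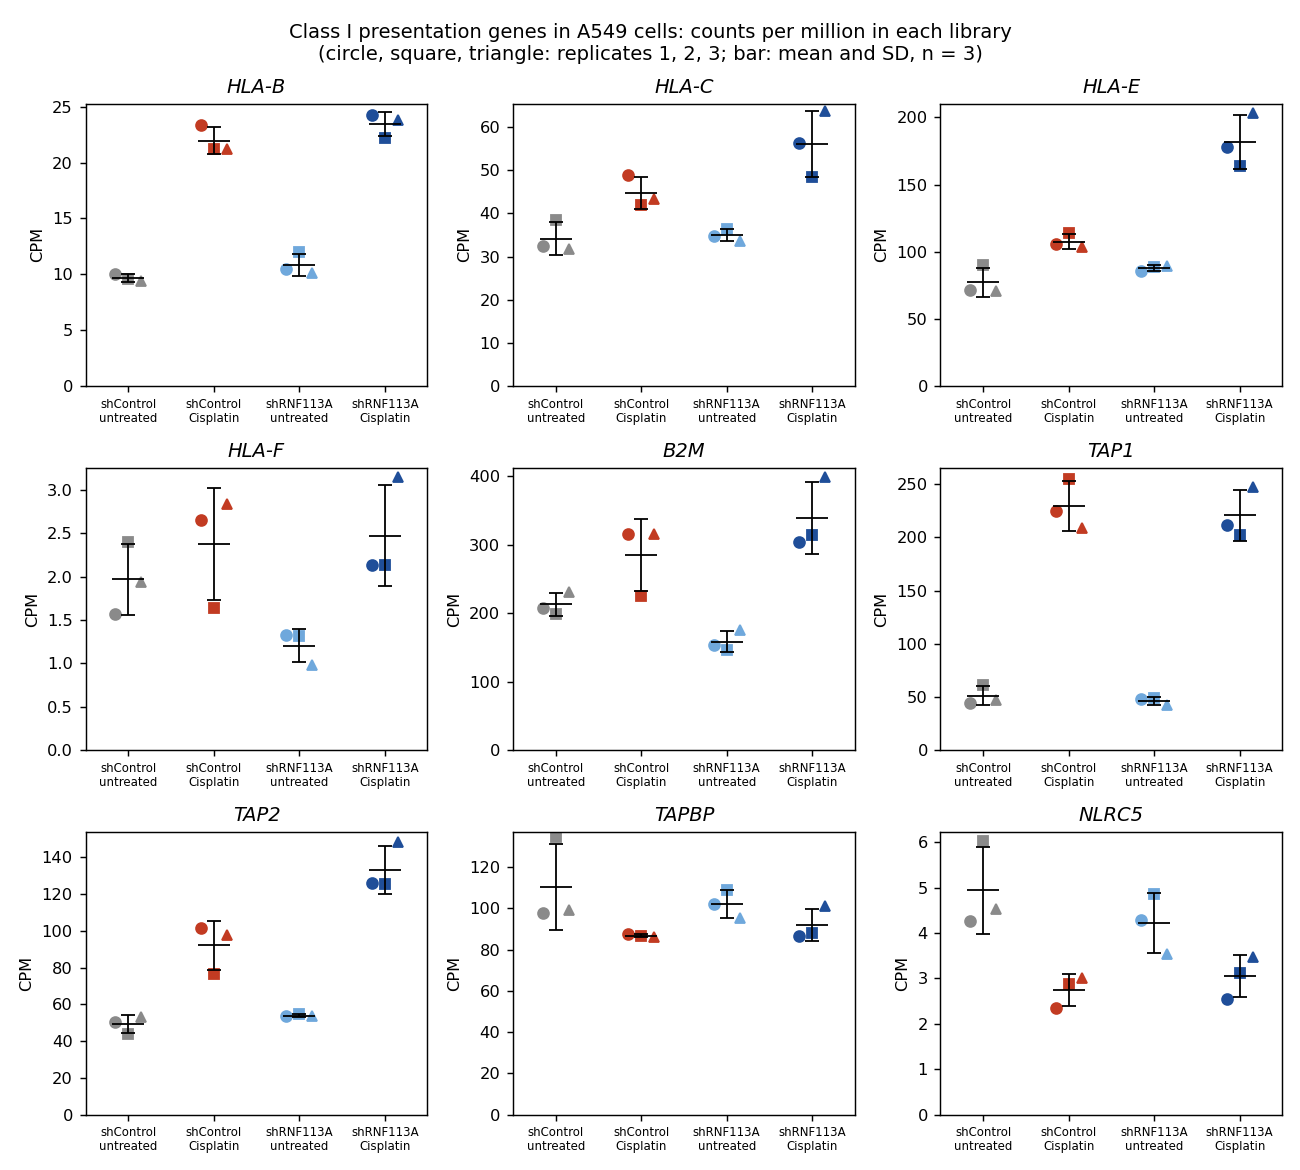
Level in CPM (vertical axes, starting at 0) of the 9 genes in each of the 12 libraries, grouped by condition; circles, squares and triangles are replicates 1, 2 and 3, and bars give the mean and SD (n = 3). TAP1 lies at 42.2 to 61.5 CPM in the untreated and 203 to 255 CPM in the Cisplatin-treated libraries, whereas TAPBP and NLRC5 do not rise with the drug.

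Among the heavy chains, HLA-B stood at 10.0, 9.58 and 9.41 CPM in untreated control cells and 23.4, 21.3 and 21.3 CPM with Cisplatin, with no overlap and a fold of 2.27 (CI 1.98 to 2.61, edgeR adjusted p = 4.89e-07). HLA-C went from 32.4, 38.5 and 31.7 to 48.9, 42.0 and 43.3 CPM. HLA-E, the ligand of an inhibitory receptor of natural killer cells, went from 71.5, 89.9 and 70.8 to 105, 114 and 103 CPM. Neither pair of groups overlapped, and the folds were 1.31 for HLA-C and 1.39 for HLA-E (edgeR, adjusted p = 0.0101 and 0.00188). HLA-F was scarce, at 1.58, 2.40 and 1.94 CPM untreated and 2.66, 1.64 and 2.83 CPM with Cisplatin. Its groups overlapped and its change did not pass (edgeR, fold 1.21, adjusted p = 0.395). Without both control replicate 2 libraries, an alternative chosen after seeing the data, HLA-F passed with a log2 fold change of 0.65 (edgeR, adjusted p = 0.0219).

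B2M stood at 208, 199 and 231 CPM in untreated control cells and at 316, 225 and 315 CPM with Cisplatin. Replicate 2 of the treated cells lay inside the untreated range, and the fold was 1.34 (CI 1.08 to 1.66, edgeR adjusted p = 0.0227). This call was lost on leaving out untreated control replicate 1 or 2 or Cisplatin-treated control replicate 1 or 3 (edgeR, adjusted p = 0.0536 to 0.0745). TAPBP stood at 97.6, 134 and 99.0 CPM without and 87.3, 86.8 and 86.1 CPM with the drug, lower in every treated library, with a fold of 0.786 (edgeR, adjusted p = 0.0217). That call was lost without untreated control replicate 2 (edgeR, adjusted p = 0.0715), without Cisplatin-treated control replicate 1 (0.0567) or 3 (0.0676), and when libraries were scaled by size alone (0.114). NLRC5 fell from 4.26, 6.04 and 4.53 CPM to 2.34, 2.89 and 3.00 CPM, with no overlap and a fold of 0.555 (CI 0.415 to 0.743, edgeR adjusted p = 0.0025). The transactivator of the class was thus lower in the same libraries in which TAP1 and HLA-B were higher.

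In RNF113A-depleted cells, Cisplatin raised all 4 heavy chains, B2M and both transporter genes. The 7 genes that were higher compare with 32.4% of all genes, no gene was lower, against 27.8% of all genes, and 6 of the 7 were at least 2-fold higher, against 11.7% of all genes. The median log2 fold change of the 9 genes was 1.05, against 0.06 over all genes. TAP1 again changed most, from 48.0, 49.0 and 42.2 CPM to 212, 203 and 248 CPM (fold 4.76, edgeR adjusted p = 4.62e-08). TAP2 went from 53.4, 54.8 and 53.5 to 126, 125 and 149 CPM (fold 2.47, edgeR adjusted p = 1.18e-06). In both genes the treated libraries lay well above the untreated ones.

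In depleted cells all 4 heavy chains passed. HLA-B went from 10.5, 11.97 and 10.1 CPM to 24.3, 22.2 and 23.8 CPM (fold 2.16, edgeR adjusted p = 7.58e-07). HLA-C went from 34.9, 36.4 and 33.6 to 56.2, 48.4 and 63.7 CPM (fold 1.61, edgeR adjusted p = 0.000195). HLA-E went from 85.4, 88.4 and 89.6 to 178, 164 and 203 CPM (fold 2.07, edgeR adjusted p = 3.26e-06). No treated library of these 3 genes reached down to an untreated one. HLA-F went from 1.32, 1.31 and 0.984 to 2.13, 2.13 and 3.14 CPM (fold 2.04, edgeR adjusted p = 0.00565), and B2M from 154, 146 and 176 to 304, 314 and 399 CPM (fold 2.14, edgeR adjusted p = 3.15e-05). TAPBP stood at 102, 109 and 95.2 CPM untreated and 86.5, 88.1 and 101 CPM treated, with overlap (fold 0.900, edgeR adjusted p = 0.273). NLRC5 stood at 4.29, 4.86 and 3.54 CPM untreated and 2.55, 3.12 and 3.48 CPM treated. Its groups lay side by side without overlap, and its fold of 0.720 was at the limit (edgeR, adjusted p = 0.0524), and it passed as lower with unstranded counts (0.0446), DESeq2 size factors (0.035), the DESeq2 test (0.0296), the replicate block (0.034) and only the 6 libraries compared (0.012), in 6 of the 12 fits without 1 library, and without both control replicate 2 libraries (0.0161). With only the 6 libraries compared TAPBP also passed as lower (log2 fold change -0.20, edgeR adjusted p = 0.0282).

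**Figure D2:**
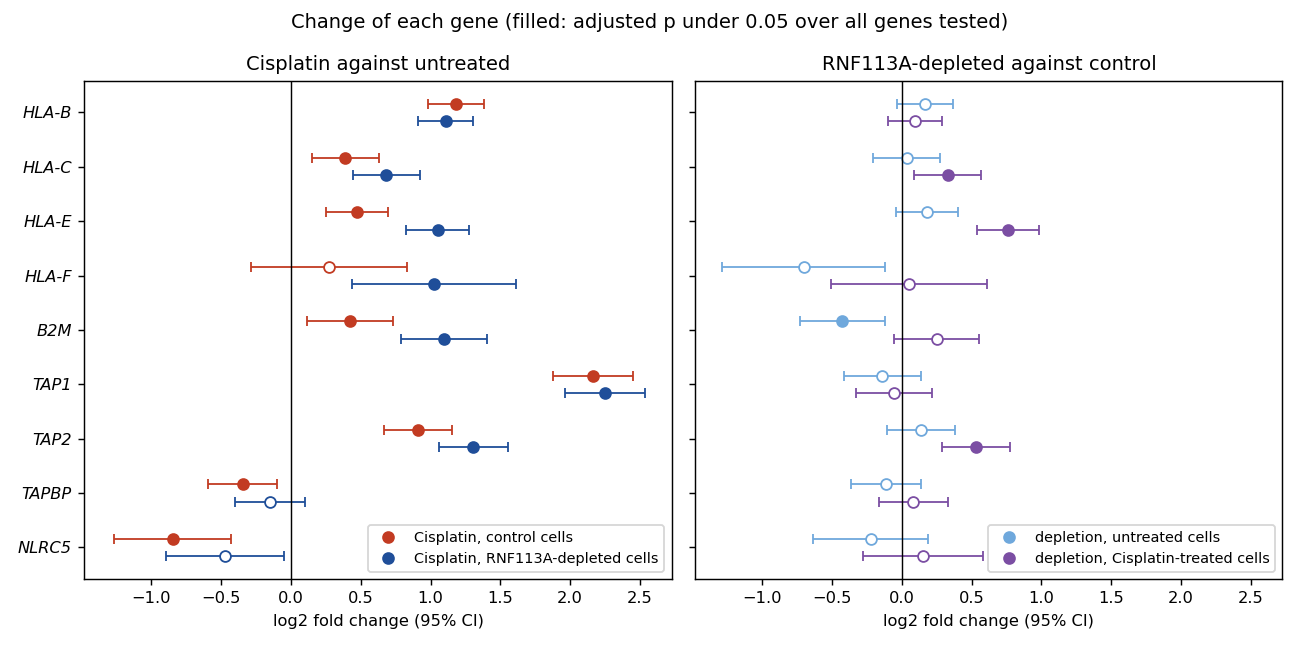
Log2 fold change (horizontal axes, 95% confidence interval) of the 9 genes upon Cisplatin (left, in control and in RNF113A-depleted cells) and upon RNF113A depletion (right, in untreated and in Cisplatin-treated cells); filled points have an adjusted p under 0.05. On the left, 8 points of the control cells and 7 of the depleted cells are filled, on the right 1 and 3.

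Without the drug, the light chain was the 1 gene of the 9 to change upon RNF113A depletion. B2M was lower, at 154, 146 and 176 CPM against 208, 199 and 231 CPM in control cells, with no overlap and a fold of 0.744 (CI 0.602 to 0.920, edgeR adjusted p = 0.0414). It was the 1 gene called, where 14.6% of all genes were lower and 12.8% higher. HLA-F stood at 1.32, 1.31 and 0.984 CPM against 1.58, 2.40 and 1.94 CPM, a fold of 0.614 that did not pass (edgeR, adjusted p = 0.0712). The B2M call was lost without untreated control replicate 1 or 3 or untreated depleted replicate 1 or 2 (edgeR, adjusted p = 0.0726 to 0.145). HLA-E passed as higher without untreated control replicate 2 (log2 fold change 0.30, edgeR adjusted p = 0.0206), and HLA-F as lower without Cisplatin-treated control replicate 2 (-0.71; 0.0359).

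With Cisplatin, HLA-E, TAP2 and HLA-C were higher in depleted than in control cells, 3 of the 9 genes where 21.1% of all genes were higher, and none was lower, against 21.8%. HLA-E showed the clearest difference, at 178, 164 and 203 CPM against 105, 114 and 103 CPM (fold 1.69, CI 1.45 to 1.98, edgeR adjusted p = 0.000171). TAP2 stood at 126, 125 and 149 CPM against 102, 76.8 and 97.9 CPM (fold 1.45, edgeR adjusted p = 0.00255). Neither gene's groups overlapped. HLA-C stood at 56.2, 48.4 and 63.7 CPM against 48.9, 42.0 and 43.3 CPM, with overlap (fold 1.25, edgeR adjusted p = 0.0305), and lost its call without control replicate 2 or 3 or depleted replicate 1 or 3 of the treated cells (adjusted p = 0.122 to 0.149). TAP1 and HLA-B, which the drug raised at least 2-fold in both kinds of cells, had folds of 0.963 (CI 0.797 to 1.16) and 1.07 (CI 0.933 to 1.22) between depleted and control cells. Over all 12 libraries HLA-E (fold 1.39) and TAP2 (fold 1.26) were higher upon depletion (edgeR, adjusted p = 0.003 and 0.011), 2 genes where 23.5% of all genes were higher and 24.0% lower.

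Whether the response to Cisplatin differed between depleted and control cells was tested by the interaction term. HLA-E passed, with a log2 difference of 0.58 (SE 0.15, edgeR adjusted p = 0.0454), 1 gene of the 9 where 1.98% of all genes were higher and 2.27% lower. B2M had a log2 difference of 0.68 (SE 0.20) and HLA-F of 0.76 (SE 0.37), and neither passed (edgeR, adjusted p = 0.0766 and 0.266). The HLA-E value kept its sign but passed in only 4 of the 12 fits that left out 1 library. It was lost without control untreated replicate 3, control Cisplatin replicate 1 or 3, any depleted untreated replicate, or depleted Cisplatin replicate 1 or 3 (adjusted p = 0.0565 to 0.12). It was also lost with library size scaling (0.0701), with DESeq2 size factors (0.0523) and with the replicate block (0.0505), where B2M passed instead (0.0213). Without both control replicate 2 libraries, HLA-E, B2M (0.57, edgeR adjusted p = 0.0156) and TAP2 (0.36; 0.0328) passed.

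A class I complex holds 1 heavy chain and 1 light chain, and the balance of the transcripts was followed as the summed exonic reads per kilobase of the 4 heavy chain genes over those of B2M. The ratio was 0.621, 0.781 and 0.550 in untreated control cells, 0.647, 0.880 and 0.604 in Cisplatin-treated control cells, 0.944, 1.05 and 0.837 in untreated depleted cells, and 0.919, 0.806 and 0.783 in Cisplatin-treated depleted cells. All 3 untreated depleted libraries lay above the untreated control libraries, a log2 difference of 0.54 (two-sided exact permutation test, p = 0.1, the smallest that 3 against 3 libraries can give). With Cisplatin the log2 difference between depleted and control cells was 0.25 and the groups overlapped (exact permutation p = 0.3), and with HLA-B and HLA-C alone as heavy chains it was -0.006. The drug gave log2 differences of 0.12 in control and -0.17 in depleted cells (exact permutation p = 0.6 and 0.2). None of the 4 comparisons could pass 0.05 at this size.

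Around these genes, the inducible proteasome subunits and the activator IRF1 rose with Cisplatin, while the peptide loading partners moved both ways. Of all genes, 28.0% rose and 27.0% fell in control cells, and 32.4% rose and 27.8% fell in depleted cells. No list was tested as a set. Of the 5 immunoproteasome and proteasome activator genes, 4 rose in control cells and all 5 in depleted cells. PSMB8, an inducible catalytic subunit, rose by 1.20 and 1.504 on the log2 scale, PSME2 by 0.67 and 0.90, and PSMB9 by 0.50 in control cells. The medians of the list were 0.50 and 0.58. Of 13 transcription factors of class I promoters, 4 rose and 1 fell in control cells, and 4 rose and 3 fell in depleted cells. IRF1, an interferon-responsive activator, went from 17.6, 11.7 and 18.4 CPM to 76.4, 78.2 and 78.7 CPM in control cells (log2 2.29, edgeR adjusted p = 6.46e-08) and rose by 2.21 in depleted cells. RFX5, a subunit of the factor that binds the X box of these promoters, rose by 0.83 and 0.79. NFKB1 rose by 0.66 in control cells and RELA by 0.62 in depleted cells. The medians of the list were 0.15 and 0.07.

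The shares over all genes just given apply to the next lists too. Of 6 peptide loading partners, 3 rose and 3 fell in both kinds of cells. ERAP2, which trims peptides in the endoplasmic reticulum, rose by 2.07 and 2.51 on the log2 scale and TAPBPL, a tapasin relative, by 0.87 and 0.64. PDIA3, the thiol oxidoreductase bound to tapasin, fell by 0.64 in control cells and 0.59 in depleted cells. The other members that fell were the chaperones CALR and CANX, named after their values were seen. Of 11 interferon receptors and signalling genes, 4 rose and 3 fell in control cells and 5 rose and 1 fell in depleted cells. SOCS1, a feedback inhibitor of cytokine signalling, rose by 1.68 and 3.07 from at most 1.48 CPM, JAK2 fell by 0.78 in control cells, TYK2 rose by 0.53 and 0.70, and IRF9 rose by 0.86 in depleted cells. Of 8 class I-like genes tested, 5 rose and 1 fell in each kind of cell. ULBP2, a ligand of the activating receptor NKG2D, rose by 2.31 and 2.88, and MR1, which presents vitamin B metabolites, by 2.14 and 1.94, whereas HFE, a regulator of iron uptake, fell by 1.26 and 1.34. HLA-G was at or under 0.106 CPM in every library. Of 10 class II genes 3 were tested and none passed in these 2 comparisons, and HLA-DRA, HLA-DRB1, HLA-DPB1, HLA-DQA1, HLA-DQB1, CD74 and CIITA stayed under 1 CPM in every library.

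Upon depletion, PSMB9, MR1 and ULBP1 were lower in both untreated and Cisplatin-treated cells. Of all genes, 12.8% were higher and 14.6% lower untreated, and 21.1% were higher and 21.8% lower with Cisplatin. The transcription factor list held 1 higher and 2 lower genes untreated and 1 higher and 4 lower with Cisplatin, CREB1, which binds the X2 element (-0.41 and -0.68), among the lower. PSMB9, which lies head to head with TAP1, was the 1 immunoproteasome gene to change, by -0.72 and -0.78, although TAP1 itself did not pass in either comparison. Among the class I-like genes, 2 fell untreated, and 2 rose and 4 fell with Cisplatin. MR1 fell by 0.88 and 1.09 and ULBP1, another NKG2D ligand, by 0.62 and 1.83. The signalling list held 3 higher and 3 lower genes untreated, led by SOCS3 (-0.78), and 2 higher and 1 lower with Cisplatin, led by JAK1 (-0.55). Of the loading partners, CALR was higher untreated (0.23) and ERAP2 with Cisplatin (0.65).

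Since RNF113A is part of the spliceosome, the share of intronic reads was followed as the genic minus the exonic reads of each gene. The ratio of intronic to exonic reads shifted over the whole transcriptome, with a median log2 change over 11488 genes of 0.29 upon Cisplatin in control cells, 0.75 upon Cisplatin in depleted cells, 0.47 upon depletion in untreated cells and 0.96 upon depletion in Cisplatin-treated cells. The medians of the 9 genes were 0.40, 0.78, 0.61 and 0.76. Upon depletion, TAPBP, TAP1, TAP2, HLA-E and NLRC5 had a higher ratio in untreated cells, 5 of the 9 where 28.2% of all genes were higher. With Cisplatin the same 5 and B2M were higher, 6 of the 9 where 81.5% of all genes were higher. In depleted cells Cisplatin raised the ratio of HLA-B, HLA-E, B2M, TAPBP and NLRC5, 5 of the 9 where 64.6% of all genes were higher. In control cells it raised none by edgeR's test, where 17.5% of all genes were higher and B2M, TAPBP and NLRC5 had the smallest unadjusted p (0.0567, 0.0102 and 0.0127). With the replicate number as a block, TAPBP passed there (0.77, edgeR adjusted p = 0.0383), as it did without both control replicate 2 libraries (1.02; 0.000328), and without Cisplatin-treated control replicate 2 alone B2M, TAP2, TAPBP and NLRC5 passed.

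TAPBP had the largest log2 change of the 9 in depleted cells upon Cisplatin (1.28) and in Cisplatin-treated cells upon depletion (1.46). Intronic reads made up 2.15%, 1.73% and 2.46% of its genic reads in untreated control cells, 3.26%, 2.00% and 5.95% in Cisplatin-treated control cells, 3.96%, 4.27% and 3.74% in untreated depleted cells, and 9.58%, 8.91% and 9.02% in Cisplatin-treated depleted cells. The last group lay above every other library. Its log2 ratio rose by 1.46 upon depletion in treated cells, 0.50 above the median of all genes (edgeR, adjusted p = 6.43e-05). HLA-E went from 1.96%, 1.56% and 2.31% in treated control cells to 4.23%, 3.99% and 5.26% in treated depleted cells (log2 1.25, edgeR adjusted p = 2.18e-05). HLA-B, HLA-C and HLA-F had log2 changes of 0.34, 0.19 and 0.33 there, none past the threshold. The calls upon depletion in untreated cells depended on single libraries. Leaving out 1 library gave 0 to 5 calls, and none was left without untreated control replicate 2 or without untreated depleted replicate 1 or 2.

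**Figure D3:**
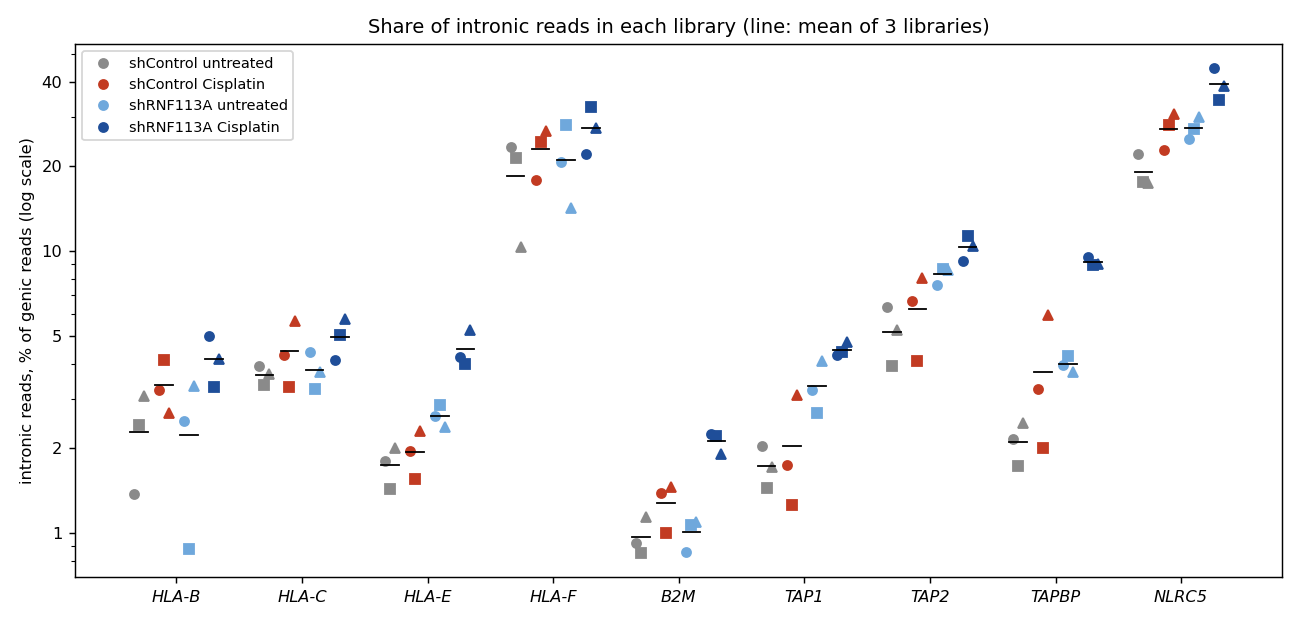
Intronic reads as a percent of genic reads (vertical axis, log scale) for the 9 genes in the 12 libraries; colours are the 4 conditions, symbols the replicates and lines the means. TAPBP stands at 8.91% to 9.58% in Cisplatin-treated depleted cells and at 1.73% to 5.95% in all other libraries.

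The deposited splicing tables, which list skipped exons, mutually exclusive exons, retained introns and alternative 5′ and 3′ splice sites, held 41 to 49 events in these genes per comparison, of which 26 to 33 had enough reads. Upon depletion 1 event was called in untreated and 1 in Cisplatin-treated cells, against 0.225% and 0.58% of all events. None was called upon Cisplatin in control or depleted cells, against 0.183% and 0.804% of all events. Both called events are skipped exons of TAPBP that share a junction. Exons 6 and 7 of its transcript (numbered along 1 Gencode transcript, hg19) are coding. Exon 6 has 90 bases, a multiple of 3, and exon 7 has 35 bases, which is not. They are shown 5′ to 3′ on the strand of the gene, exon in capitals and 20 intronic bases on each side in lower case, from the genome of the files' build.
TAPBP exon 6 (chr6:33271885-33272014, minus strand): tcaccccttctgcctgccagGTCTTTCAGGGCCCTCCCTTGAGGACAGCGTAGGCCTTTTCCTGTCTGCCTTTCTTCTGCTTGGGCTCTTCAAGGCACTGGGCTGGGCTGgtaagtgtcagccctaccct
TAPBP exon 7 (chr6:33271712-33271786, minus strand): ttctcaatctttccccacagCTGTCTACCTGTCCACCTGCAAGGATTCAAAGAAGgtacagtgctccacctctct
Both exons are bounded by ag and gt, the usual acceptor and donor bases.

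Reads that join exon 5 directly to exon 8, leaving out both exons, numbered 5, 4 and 10 in untreated control cells, 10, 10 and 7 in Cisplatin-treated control cells, 25, 22 and 19 in untreated depleted cells, and 30, 25 and 28 in Cisplatin-treated depleted cells. In the event whose neighbours are exons 5 and 8, reads that include exon 6 numbered 201, 287 and 189, then 188, 205 and 195, then 185, 184 and 169, then 101, 97 and 94 in the same order of conditions. Reads that join exon 6 to exon 7 are not part of that event. These numbers are not scaled for depth. The Cisplatin-treated depleted libraries had the fewest assigned reads, 26220526 to 30806147. Every depleted library had more skipping reads than every control library. The inclusion level of exon 6, corrected for length, went from 90.6% ± 1.67 (SD, n = 3) in treated control cells to 61.0% ± 1.96 in treated depleted cells, a difference of -29.6 points (edgeR over the table's events, adjusted p = 8.9e-05). It was 93.7% ± 3.90 and 78.4% ± 1.60 in untreated control and depleted cells, a difference of -15.2 points, which did not pass (edgeR, adjusted p = 0.0614). The inclusion level of exon 7, against the same skipping reads, went from 90.6% ± 5.45 to 61.4% ± 4.13 in untreated cells, a difference of -29.1 points (edgeR, adjusted p = 0.0104). Both levels rest on the same skipping reads and are not independent of each other. They leave out reads that join exon 6 to exon 7, and so do not give the share of transcripts that hold each exon. With exons 6 and 8 as neighbours, exon 7 stood at 94.2% ± 2.61 in untreated control and 88.0% ± 4.96 in untreated depleted cells. With exons 5 and 7 as neighbours, exon 6 stood at 100% and 99.3% ± 1.19. Neither difference passed (edgeR, adjusted p = 0.699 for each).

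**Figure D4:**
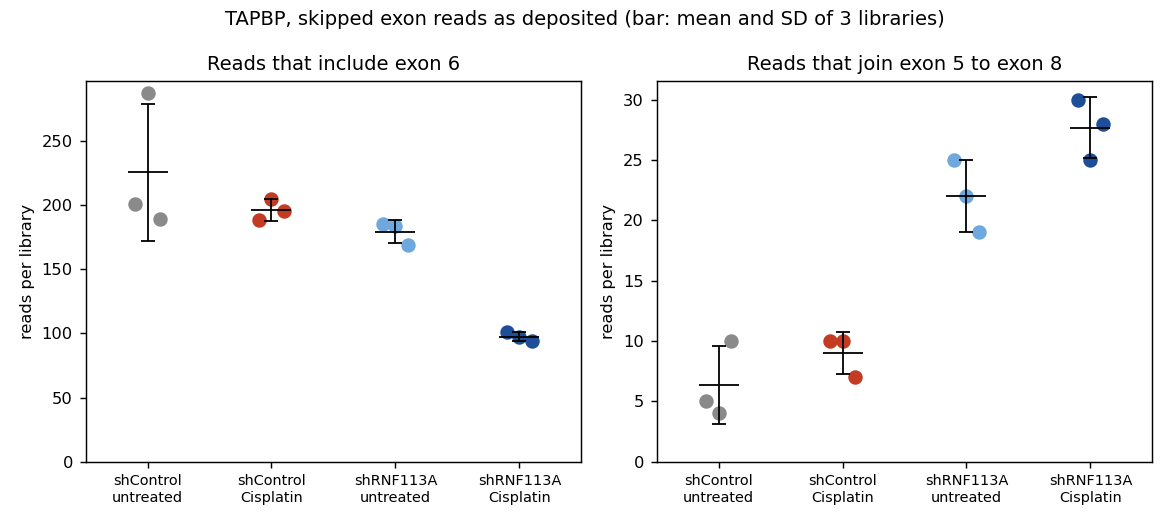
TAPBP reads per library (vertical axes, starting at 0) that include exon 6 (left) or join exon 5 to exon 8 (right), as deposited, in the 4 conditions; points are the 3 libraries and bars the mean and SD. The skipping reads number 4 to 10 in control and 19 to 30 in depleted cells, and the inclusion reads are lowest, at 94 to 101, in Cisplatin-treated depleted cells. Reads are not scaled for depth, which was also lowest in that condition.

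The exon 6 difference in treated cells held on leaving out each library in turn, with differences of -28.7 to -30.7 points and the call kept in all 6. The exon 7 call in untreated cells was lost on leaving out any library but the third of the control group (edgeR, adjusted p = 0.209 to 0.403), with differences of -26.7 to -32.1 points throughout. Skipping of exon 7 alone, by reads that join exon 6 to exon 8, numbered 7, 20 and 10 in treated control cells and 5, 1 and 1 in treated depleted cells, and its inclusion level of 89.9% ± 5.33 and 96.3% ± 2.77 did not pass (edgeR, adjusted p = 0.709). The TAPBP read total itself did not pass in either depletion comparison (fold 0.924 untreated and 1.06 with Cisplatin, edgeR adjusted p = 0.494 and 0.584).

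Across the 12 libraries, 7 of the 9 genes followed the mean profile of all 9, with a Pearson r of 0.837 to 0.955, while TAPBP (-0.224) and NLRC5 (-0.479) did not. Each gene is itself part of that mean, which raises its r by construction. Among 9772 other genes averaging 10 CPM or more, those most like the mean profile were UNC119B (r = 0.966), CAMLG (0.964), SMPD1 (0.961), KLHL11 (0.96) and METTL21B (0.954). SMPD1, which encodes acid sphingomyelinase, stood at a mean of 10.8 CPM in untreated control, 16.3 in Cisplatin-treated control, 9.68 in untreated depleted and 27.8 CPM in Cisplatin-treated depleted cells. The libraries share the 4 conditions, so these values describe a likeness and carry no test.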

How the data were processed

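RNA was sequenced in 12 A549 libraries, 4 conditions with 3 biological replicates each, stranded and poly(A)-selected. Per the labels and the study's methods, the authors trimmed reads with cutadapt, aligned them to hg19 with STAR 2.5.2b and counted genes with STAR and HTSeq. The authors deposited whole read counts per gene (total and by strand), exonic and genic HTSeq counts, a Gencode exon annotation, and rMATS inclusion and skipping read counts with lengths. Columns of the authors' own fold changes and p values were not used.

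Strand-specific STAR counts were fitted here with edgeR 4.0.16 (TMM, filterByExpr, quasi-likelihood F test; drug, depletion and their interaction over 12 libraries), with Benjamini-Hochberg adjustment over all genes tested and a threshold of 0.05. CPM use TMM-scaled library sizes. Intronic to exonic ratios and splicing reads were fitted by edgeR with 1 term per library; splicing events needed 10 reads in every library and 10 points of difference. The ratio of heavy chain to B2M used an exact permutation test. Alternatives covered strand, scaling, filters, DESeq2 1.42.0, pairing and left-out libraries. On simulated data, 200 of 200 changed genes were recovered for Cisplatin in control cells over 15084 genes, with 8 false calls. For intronic ratios upon depletion in untreated cells 169 of 200 were recovered, with 14 false calls. For retained introns upon depletion in treated cells 134 of 200 were recovered, with 4 false calls. Skipped exons were not simulated, and the simulated data held no replicate that stood apart.

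Libraries held 26220526 to 45721152 assigned reads, and p values cover the spread between these libraries. Replicate numbers were tested for pairing over 9779 genes. Equal numbers of untreated and Cisplatin-treated control cells correlated at 0.479 to 0.73. Unequal numbers 1 and 3 correlated alike, at 0.585 and 0.533, while number 2 against 1 or 3 gave -0.692 to -0.576. These values set replicate 2 apart and do not show that 1 and 3 are paired by number, and the labels name no pairing. In every other pair of groups at least 1 equal-number correlation was at or under 0.1. The block was an alternative fit and not the reported one. The splicing tables name the libraries of a group by order only. All 9 genes were named, with up to 3 genes per list of the largest change past the threshold. Some genes of the class and of the lists are not reported here by name, though list counts cover all genes tested. The genes and lists were chosen with earlier results of these data known.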

Additional observations from a re-analysis of the deposited data

Results flagged for a closer look

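In 3 genes the response to Cisplatin differed between RNF113A-depleted and control cells by the interaction term of edgeR's test, whose value is the log2 fold change in depleted minus that in control cells. For HLA-E it was 0.58 (adjusted p = 0.0454), with log2 fold changes of 1.05 in depleted and 0.47 in control cells. Its call was lost in 8 of the 12 fits that left out 1 library, with the replicate block (0.0505), with library size scaling (0.0701) and with DESeq2 size factors (0.0523). For ULBP1, an NKG2D ligand, it was -1.21 (adjusted p = 0.0453): control cells went from 12.4, 6.09 and 10.5 CPM to 23.5, 19.4 and 22.7 CPM, and depleted cells from 6.35, 5.36 and 7.10 CPM to 6.27, 6.71 and 5.46 CPM. For NFYC, a subunit of the factor that binds the Y box of class I promoters, it was -0.58 (adjusted p = 0.0212), with 47.0, 46.6 and 41.9 CPM in treated depleted cells and 55.6 to 71.0 CPM in all other libraries. The ULBP1 and NFYC calls were not followed over the alternative fits. The causes of these differences were not tested.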

How the results depend on the processing

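The counts of genes called for Cisplatin and for depletion in Cisplatin-treated cells kept their direction and stayed within 1.5 times under every strand, scaling, filter and tool setting. For the interaction, 1 gene was called, against 0 with library size scaling, 0 with DESeq2 size factors in edgeR, 2 with the DESeq2 test (HLA-E and B2M) and 3 without both control replicate 2 libraries, an alternative chosen after seeing the data. In the same alternative depletion in untreated cells called 2 genes, and the intronic ratio called 1 for Cisplatin in control cells and 3 for depletion in untreated cells, the latter also 3 with no filter on intronic reads. Without a limit on the inclusion level, 1 TAPBP event was called for Cisplatin in depleted cells and 2 for depletion in Cisplatin-treated cells. With HLA-B and HLA-C alone, the log2 ratio to B2M differed by -0.32 for Cisplatin in depleted cells and by -0.006 for depletion in Cisplatin-treated cells. With only the 6 libraries compared, TAPBP lost its fall in control cells (edgeR adjusted p = 0.0727), while TAPBP (-0.20, 0.0282) and NLRC5 (-0.53, 0.012) passed as lower in depleted cells. The causes were not tested.

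With the replicate block, the intronic ratio called 1 gene for Cisplatin in control cells, and no other call changed there. A pairing of these libraries by number was not established. With the block 8 genes were called for Cisplatin in depleted cells, NLRC5 as lower. The 1 gene of the interaction was then B2M (0.68, edgeR adjusted p = 0.0213) in place of HLA-E (0.0505). For the splicing tables no paired analysis was possible because their libraries carry no replicate number.

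Leaving out 1 library at a time, the genes called were 9 for Cisplatin over all libraries, 2 to 3 for depletion over all, 6 to 8 and 7 to 8 for Cisplatin in control and depleted cells, 0 to 2 and 2 to 3 for depletion in untreated and treated cells, and 0 to 2 for the interaction. The intronic ratio gave 0 to 4, 3 to 6, 0 to 5 and 5 to 6 calls for Cisplatin in control and depleted cells and depletion in untreated and treated cells. Splicing gave 0 to 1 for depletion in untreated cells and 1 in treated cells; for the Cisplatin comparisons only retained introns were refitted, and other event types were not run. The log2 ratio to B2M ran from -0.043 to 0.262, -0.253 to -0.092, 0.431 to 0.684 and 0.144 to 0.416 in the same order of comparisons.

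Values that changed sign passed no test. Without both control replicate 2 libraries these were, upon depletion over all libraries, TAP1 0.019, TAPBP 0.067 and NLRC5 0.056, in untreated cells TAP1 0.013 and TAPBP 0.053, in treated cells HLA-F -0.17 and TAP1 0.024, and for intronic ratios HLA-C -0.004 and B2M -0.04 in untreated and HLA-C -0.003 in treated cells. Over the fits without 1 library, log2 changes upon depletion ran from -0.059 to 0.068 for TAPBP and -0.13 to 0.053 for NLRC5 over all libraries, from -0.018 to 0.13 for HLA-C, -0.23 to 0.012 for TAP1 and -0.19 to 0.053 for TAPBP in untreated cells, and from -0.21 to 0.14 for HLA-F and -0.003 to 0.21 for NLRC5 in treated cells, and the TAP1 interaction from -0.069 to 0.18. Intronic ratios ran from -0.20 to 0.49 for TAP1 upon Cisplatin in control cells, from -0.49 to 0.35 for HLA-B, -0.07 to 0.17 for HLA-C, -0.042 to 0.50 for HLA-F and -0.037 to 0.18 for B2M upon depletion in untreated cells, and from -0.003 to 0.40 for HLA-C in treated cells. Intronic reads were few, 5 and 9 for HLA-B in the first 2 control libraries, which limits what these ratios can show.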

Other observations

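TAPBP also appeared among the mutually exclusive exons. In an event that sets exon 6 against another exon, the level of the inclusion form was 85.4% ± 1.85 (SD, n = 3) in Cisplatin-treated control cells. It was 92.0% ± 1.13 in Cisplatin-treated depleted cells and 85.4% ± 3.03 in untreated depleted cells. Which exon of the pair that form holds was not settled here, so the level gives no direction for exon 6. Both differences from the treated depleted cells passed edgeR's test (adjusted p = 0.0027 and 0.0101) but were 6.60 and 6.64 points, under the limit of 10 points. Retained introns of TAP1, B2M and HLA-B stayed low: inclusion in TAP1 was 0.98% ± 0.159 in untreated and 1.90% ± 0.208 in Cisplatin-treated depleted cells and did not pass (edgeR, adjusted p = 0.113).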
